A study of Homo sapiens with 20 samples.

Results

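Cytosolic ribosomal protein genes encode the proteins of the large (RPL) and small (RPS) ribosomal subunits. They were taken from a table of 58787 genes by symbol (RPL or RPS followed by a number, with A, L or X forms, plus RPLP0, RPLP1, RPLP2 and RPSA) and by protein-coding type, which left out the ribosomal S6 kinases. This gave 84 genes, and 82 of them were among the 13729 genes that passed the low-count filter. RPL10L, with 0 counts in all libraries, and RPL3L, with 36 counts in all, did not pass. Of the 82 genes, 77 encode the standard ribosomal proteins (46 of the large and 31 of the small subunit) and are called core genes here. The other 5 are diverged copies of a core gene, called L-type paralogs here: RPS27L, RPL22L1, RPL39L, RPL26L1 and RPL7L1.

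The cells were IMR-32, an established human neuroblastoma line with amplified MYCN, labelled as neuroblasts of wild-type genotype, so no gene had been altered by the study and each comparison is between drug conditions of 1 line. Attached cells in flasks received compound or vehicle for 24 h, in 5 groups of 4 libraries each: Dyngo-4a combined with prexasertib (the combination), Dyngo-4a at 2.26 µM (the high dose), Dyngo-4a at 1 µM (the low dose), prexasertib at 2 nM, and DMSO, the solvent. The labels name both drugs for the combination without the dose of either. Dyngo-4a is a small-molecule inhibitor of dynamin, the GTPase that pinches off endocytic vesicles, and prexasertib inhibits the checkpoint kinase CHK1. The labels do not say whether replicate libraries stem from separate flasks. The p-values here therefore reflect the spread between libraries, which may be technical.

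Ribosomal proteins are made in matched amounts, carried into the nucleolus, and built onto ribosomal RNA with the help of assembly factors and dedicated chaperones. Their mRNAs commonly begin with a C followed by a run of pyrimidines, the 5′ terminal oligopyrimidine (TOP) tract, through which mTORC1 and LARP1 control their translation and stability. RPL5 and RPL11, when not built into ribosomes, bind MDM2 and so stabilise p53, and RPS27L, the paralog of RPS27, is a known p53 target gene.

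The following windows show the bases around annotated starts for paralogs and core partners. The TOP tract separates RPS27 from RPS27L and RPL26 from RPL26L1, while RPL22 and RPL22L1 both have it. No window is shown for RPL39L or RPL7, which had no RefSeq entry in the set used. Each window holds 30 bases on the transcript's strand, 15 before the start and 15 from it, from RefSeq (GRCh38.p14). Capitals mark the unbroken pyrimidine run from the start base, or the start base alone where that base is a purine.
RPS27: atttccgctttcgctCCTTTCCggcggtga
RPS27L: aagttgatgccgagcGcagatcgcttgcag
RPL26: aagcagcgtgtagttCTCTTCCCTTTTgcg
RPL26L1, first start: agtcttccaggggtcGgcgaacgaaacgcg
RPL26L1, second start: ggcggggcggcggccAcaaacccgcaggca
RPL22: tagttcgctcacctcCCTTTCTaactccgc
RPL22L1: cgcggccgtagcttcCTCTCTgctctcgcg
RPL7L1: cggaagtgcggcgccGtagctaggagcgga
RPL39: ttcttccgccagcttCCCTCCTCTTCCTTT

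These windows lie at chr1:153990747-153990776 on the plus strand for RPS27, chr15:63157463-63157492 on the minus strand for RPS27L, chr17:8383179-8383208 on the minus strand for RPL26, and chr5:172958714-172958743 and chr5:172958865-172958894 on the plus strand for RPL26L1. The others lie at chr1:6199581-6199610 (minus) for RPL22, chr3:170870181-170870210 (minus) for RPL22L1, chr6:42879601-42879630 (plus) for RPL7L1 and chrX:119791616-119791645 (minus) for RPL39. RPS27, RPL26, RPL22, RPL39 and RPL22L1 start with a C inside a pyrimidine run, while the RPS27L, RPL26L1 and RPL7L1 windows start at a purine.

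A TOP-like start was counted where the start base was C and the next 4 bases were each C or T, read at that position on the transcript's strand. A gene counted when any of its annotated starts matched. A start of this kind was present for 47 of the 67 genes with a RefSeq entry (70.1%). Among tested core genes it was present for 46 of 62 (74.2%), and among L-type paralogs for 1 of 4, RPL22L1. Of all 35116 RefSeq windows 4.07% had such a start. Counted by gene, 5.14% of all 27305 symbols and 7.55% of the 10009 tested genes with an entry had one. A match describes the annotated letters, not the start sites used in these cells.

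The libraries held 3960885 to 6537843 counts. Each count comes from the 3′ end of an mRNA, and levels are given as CPM, a gene's counts relative to the library's total after TMM scaling. The marker levels in this paragraph are CPM without that scaling. The labelled cell type was checked by markers: GATA3, a transcription factor of sympathetic neuroblasts, measured 927 to 1290.1 CPM in the 20 libraries, while TH, another marker, measured 0 to 3.28 CPM. Of 8 markers of other cell types, KRT5 and KRT18 were at 0 in all libraries and COL1A1, the highest, measured 14.6 to 48.5 CPM. In each group the ribosomal protein share of counts was on average higher in replicates 2 and 4 than in replicates 1 and 3, and 63 of the 82 genes had a higher mean in replicates 2 and 4 in 5 of 5 groups. All libraries carry the same batch label.

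The 82 genes together took a similar share of counts in every condition. Their share was 10.5%, 12.9%, 11.2% and 12.6% in combination replicates 1 to 4, 10.3%, 12.5%, 12.1% and 11.9% with the high dose, 10.8%, 11.6%, 10.8% and 11.7% with the low dose, 10.2%, 11.2%, 10.4% and 11.6% with prexasertib, and 10.1%, 9.93%, 10.5% and 12.1% in DMSO. The group means were 11.8% ± 1.14 in the combination, 11.7% ± 0.937 with the high dose, 11.2% ± 0.506 with the low dose, 10.9% ± 0.672 with prexasertib and 10.7% ± 1.0 in DMSO (SD, n = 4 each). Every drug group overlapped DMSO, and the means differed by little more than 1 SD. Within replicates 1 and 3 the combination averaged 10.8% and DMSO 10.3%, while replicates 2 and 4 measured 12.9% and 12.6% in the combination and 9.93% and 12.1% in DMSO. MALAT1, an abundant nuclear RNA, took 2.33% of counts in the combination, 2.96% with the high dose, 1.56% with the low dose, 1.42% with prexasertib and 1.35% in DMSO, and its part in the ribosomal protein values was not tested. In bulk RNA, fewer cells of a kind and less RNA per cell cannot be told apart.

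**Figure D1:**
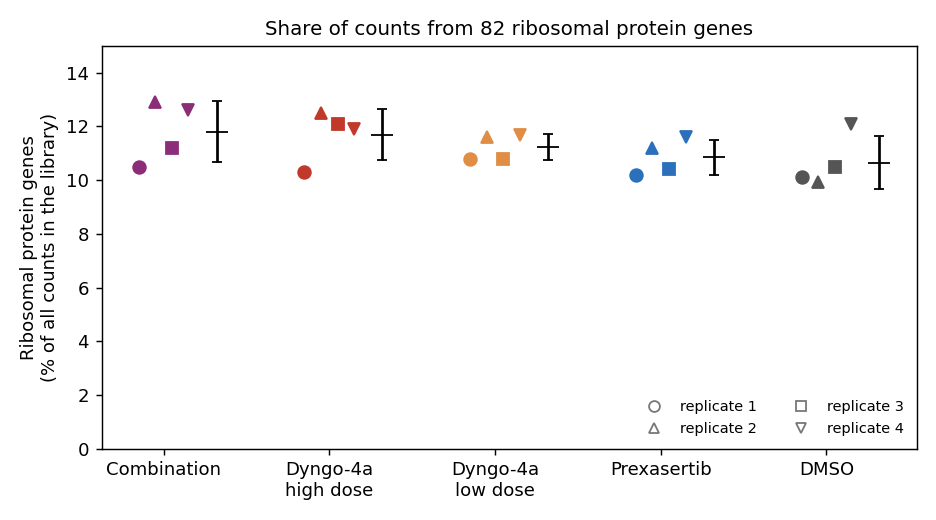
Share of each library's counts (%, y axis) that came from the 82 ribosomal protein genes, by group (x axis). Points are libraries, shaped by replicate number, and the bars beside them are mean ± SD (n = 4); the groups overlap, with means of 11.8% in the combination and 10.7% in DMSO.

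Fold changes of the core genes were small. In the combination against DMSO, 76 of the 77 core genes had a positive log2 fold change, with a median of 0.16 and a range of -0.01 to 0.42. With the high dose 65 of 77 were positive (median 0.12, highest 0.28), with the low dose 62 of 77 (median 0.05) and with prexasertib 50 of 77 (median 0.03). Over all tested genes the medians were 0.00, 0.00, 0.01 and 0.00 in the same comparisons. These 4 comparisons share the DMSO libraries, so their like direction is not independent. Within replicates 1 and 3 alone the median of all 82 genes was 0.04 in the combination and 0.08 with the high dose, and within replicates 2 and 4 alone 0.25 and 0.15. With the low dose and with prexasertib it was 0.04 and -0.01 within replicates 1 and 3, and 0.08 and 0.07 within replicates 2 and 4. Leaving out 1 library at a time, the median of the 82 genes ranged from 0.10 (without combination replicate 4) to 0.24 (without DMSO replicate 4) in the combination, and from 0.08 (without high-dose replicate 2) to 0.21 (without DMSO replicate 4) with the high dose. With the low dose it ranged from 0.01 (without low-dose replicate 4) to 0.13 (without DMSO replicate 4). The prexasertib median had no stable sign: it was -0.01 without prexasertib replicate 4 or without DMSO replicate 2, and 0.10 without DMSO replicate 4.

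None of the 77 core genes passed edgeR's quasi-likelihood test after Benjamini-Hochberg adjustment over all tested genes in any of the 8 comparisons. Of all tested genes 6.3% were called in the combination, 25.2% with the high dose, 0.262% with the low dose and 0.0% with prexasertib, each against DMSO. At an unadjusted p under 0.05, 17 core genes passed in the combination, where 19.5% of all genes did, and 14 with the high dose, where 36.3% did. With the low dose and with prexasertib 0 core genes passed, beside 7.57% and 3.77% of all genes. Between drug groups 2 passed for the high against the low dose, 5 for the combination against prexasertib, 2 for the combination against the low dose and 1 for the interaction described below, where 32.0%, 15.7%, 14.8% and 6.56% of all genes did. DESeq2 called 2 core genes higher in the combination against DMSO, beside 550 of all genes called higher. Against prexasertib it called 2 higher, beside 406 of all genes. In the combination against DMSO limma-voom called 1 higher, beside 440 of all genes. Neither tool called any core gene in the other comparisons. Fits with the replicate number as a block did call core genes in 3 of the 5 comparisons that it paired. Against prexasertib the combination then had 11 higher and 0 lower, beside 10.0% of all genes called, and against the low dose 4 higher and 0 lower, beside 8.37%. The high dose against the low dose had 5 higher and 2 lower, where 3980 of all 13729 genes were called. The combination and the high dose against DMSO were not paired by the rule used. For the combination the block called 27 core genes higher and 0 lower there, beside 14.4% of all genes. For the high dose it called 21 higher and 1 lower, beside 34.4%. The ribosomal protein share was also higher in the combination than in the same-numbered prexasertib library in 4 of 4 pairs. The 95% interval of the fold change stayed within 1.5-fold in either direction for 72 of 77 core genes in the combination and with the high dose, and for 74 of 77 with the low dose and with prexasertib. RPL17 and RPS10 averaged 17.6 and 23.2 counts per library and were among the most thinly measured core genes.

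The subunits had similar medians. The small-subunit genes had a median log2 fold change of 0.16 in the combination (31 of 31 positive) and 0.16 with the high dose (26 of 31), and the large-subunit genes 0.16 (45 of 46) and 0.11 (39 of 46). The genes with a TOP-like start had a median of 0.15 with the high dose (47 genes) and those without one 0.10 (19 genes). In the combination these medians were 0.16 and 0.14.

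Among core genes with known roles of their own, RPS19 encodes a small-subunit protein and is the gene most often mutated in Diamond-Blackfan anaemia. It measured 1811, 2208, 1816 and 2073 CPM in the combination, 1669, 2011, 1953 and 1857 CPM with the high dose, and 1588, 1555, 1455 and 1869 CPM in DMSO. The combination overlapped DMSO only through the highest DMSO library, and the log2 fold change was 0.29 ± 0.10 (SE), with an adjusted p of 0.0679 by edgeR's quasi-likelihood test. The MDM2-binding RPL11 measured 751, 978, 856 and 954 CPM in the combination, 694, 987, 915 and 994 CPM with the high dose, and 753, 648, 764 and 839 CPM in DMSO. Its log2 fold change was 0.26 ± 0.10 with the high dose (adjusted p = 0.0656, edgeR), with the lowest high-dose library below 3 of the 4 DMSO libraries. RPL5, its partner in the 5S particle, had 0.15 in the combination and 0.20 with the high dose (adjusted p = 0.437 and 0.144).

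Further core genes are described by role. RPLP0, the scaffold of the stalk that recruits elongation factors, had a log2 fold change of 0.05 in the combination and 0.10 with the high dose, and its stalk partners had 0.19 and 0.18 (RPLP1) and 0.14 and 0.03 (RPLP2). RPS6, the substrate of S6 kinase, had 0.11 and 0.12. RPSA, also known as a laminin receptor, had 0.16 and 0.16, and RPS26, which lines the mRNA exit channel, had 0.10 and -0.07. None of these was called by edgeR.

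RPS27L stood out from all other members. It measured 1018, 907, 860 and 1003 CPM in the combination, 490.4, 442, 360.4 and 504 CPM with the high dose, 450.0, 453, 415 and 533 CPM with the low dose, 444, 456, 421 and 492 CPM with prexasertib, and 292, 353, 285 and 330.3 CPM in DMSO. The 4 combination libraries lay above all 16 others, the 3 single-drug groups overlapped one another, and each single-drug library lay above every DMSO library. The gene spans 63125872 to 63158021 on the minus strand of chromosome 15 (GRCh38).

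In the combination RPS27L rose 3.01-fold against DMSO (log2 fold change 1.59 ± 0.10 SE, adjusted p = 2.99e-14, edgeR's quasi-likelihood test), the only member called among 82, while 6.3% of all tested genes were called. It rose 2.09-fold against prexasertib (1.06 ± 0.10, adjusted p = 1.59e-09), again the only member called by edgeR, against 3.44% of all genes, and by 1.03 ± 0.10 against the low dose (adjusted p = 2.24e-09), where 3.85% of all genes were called. With the low dose alone it rose by 0.56 ± 0.10 against DMSO (adjusted p = 0.00342) and was the only member called, beside 0.262% of all genes. That low-dose call was kept without any single library but not within replicates 2 and 4 alone (0.53, adjusted p = 0.189).

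With prexasertib alone the log2 fold change of RPS27L was 0.53 ± 0.10 and its adjusted p 0.0506, so no member was called by edgeR, and 0.0% of all genes were. At an unadjusted p under 0.05 edgeR passed 1 member, RPS27L, and 518 genes in all. DESeq2 called RPS27L and 6 genes in all, and limma-voom called none. The replicate numbers paired the libraries of this comparison by the check described under the processing, and RPS27L was called in the fit with that number as a block (adjusted p = 1.76e-07). Without DMSO replicate 2 it was also called (adjusted p = 0.048). The high dose raised RPS27L by 0.51 ± 0.10 (adjusted p = 0.00021), and the difference of the high from the low dose was -0.04 ± 0.10 (adjusted p = 0.816).

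The interaction was the log2 change from prexasertib to the combination, less the change from DMSO to the low dose. It is an excess over both drugs added only if the combination held their single doses, which the labels do not give. For RPS27L it was 0.51 ± 0.14, with an adjusted p of 0.161 by edgeR. No member was thus called for this interaction, where 0.284% of all genes were. At an unadjusted p under 0.05, 2 members passed, and neither DESeq2 nor limma-voom called any. With a term for replicates 1 and 3 in the fit, RPS27L was called (adjusted p = 0.01). CDKN1A, the best known p53 target, encodes the cell-cycle inhibitor p21. It rose by 2.97 in the combination, 1.65 with the high dose and 1.18 with the low dose (adjusted p = 1.5e-09, 2.3e-06 and 0.00566, edgeR). With prexasertib it measured 0.76 and was not called (adjusted p = 0.597).

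RPS27, the core partner, measured 964, 1289.6, 1122 and 1523 CPM in the combination, and 937, 767, 984 and 1056 CPM in DMSO. Its libraries overlapped between the groups and its log2 fold change was 0.39 ± 0.16 (adjusted p = 0.15, edgeR). Within libraries the log2 ratio of RPS27L to RPS27 counts averaged -0.35 ± 0.30 in the combination, -1.32 ± 0.37 with the high dose, -1.14 ± 0.15 with the low dose, -1.12 ± 0.16 with prexasertib and -1.57 ± 0.30 in DMSO (SD, n = 4 each). The combination ratios, -0.60 to 0.08, lay above those of every other group. These ratios compare 3′-end counts, and whether the mRNAs of a pair were captured equally well was not tested.

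**Figure D2:**
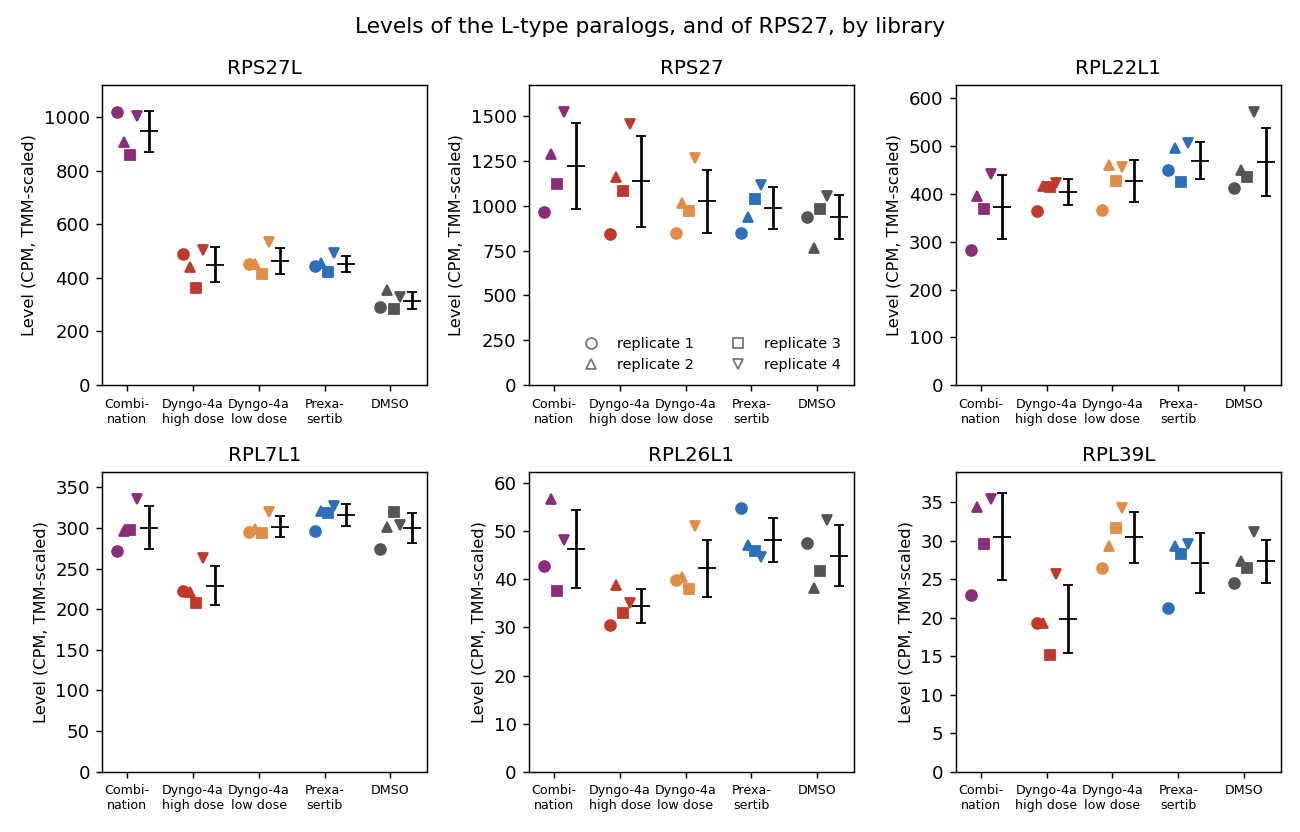
Level of the 5 L-type paralogs and of RPS27 (CPM scaled by TMM, y axis from 0) in each library, by group (x axis). Points are libraries shaped by replicate number and bars are mean ± SD (n = 4); RPS27L is highest in the 4 combination libraries (860 to 1018 CPM), and RPL7L1 is lowest in the 4 high-dose libraries (208.0 to 263 CPM).

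The high dose lowered 3 of the other 4 L-type paralogs. Against DMSO 4 of the 82 members were thus called, 1 higher and 3 lower, while 12.5% of all tested genes were called higher and 12.7% lower. RPL7L1 encodes a protein related to RPL7 that is found in assembling large subunits and lies on chromosome 6 (42879618 to 42889925, plus strand). It measured 222, 221, 208.0 and 263 CPM with the high dose, and 274, 302, 319.8 and 304 CPM in DMSO. The groups did not overlap, and the level fell by 0.39 ± 0.09 (log2; adjusted p = 0.000895, edgeR's quasi-likelihood test).

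RPL39L, a paralog of RPL39 best known from the testis, lies on chromosome 3 (187120948 to 187180908, minus strand). It measured 19.3, 19.3, 15.1 and 25.7 CPM with the high dose, and 24.5, 27.3, 26.4 and 31.1 CPM in DMSO, with 1 high-dose library inside the DMSO range. RPL39L fell by 0.47 ± 0.16 (adjusted p = 0.0244, edgeR). RPL26L1, a near copy of RPL26 on chromosome 5 (172958729 to 172969771, plus strand), measured 30.6, 38.9, 33.0 and 35.1 CPM with the high dose, and 47.6, 38.1, 41.7 and 52.4 CPM in DMSO. The highest high-dose library lay above the lowest DMSO library, and RPL26L1 fell by 0.39 ± 0.13 (adjusted p = 0.0234, edgeR).

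These last 2 calls lay near the threshold, and each was lost when any 1 of several libraries was left out. With all libraries, DESeq2 and limma-voom each called 3 L-type paralogs lower as well, beside 1823 and 1715 of all genes called lower. RPL39L was not called without DMSO replicate 4 or without high-dose replicate 1, 2 or 3 (adjusted p up to 0.119), and RPL26L1 was not called without DMSO replicate 1 or 4 or high-dose replicate 1 or 3 (adjusted p up to 0.123). The count of called members was 15 without DMSO replicate 4, 16 without high-dose replicate 1 and 2 without high-dose replicate 3. With no library left out, 25.2% of all genes were called.

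Against the low dose, the high dose lowered RPL7L1 by 0.40 ± 0.09 and RPL39L by 0.62 ± 0.15 on the log2 scale (adjusted p = 0.000974 and 0.00352, edgeR), 2 of 82 members, beside 20.2% of all genes called and 10.1% called lower. The low dose had measured 295, 298, 293 and 320.1 CPM for RPL7L1 and 26.5, 29.3, 31.6 and 34.2 CPM for RPL39L, above every high-dose library in both cases. RPL26L1 measured -0.30 ± 0.13 and was not called (adjusted p = 0.101). The replicate numbers paired these libraries, and with them as a block 10 members were called, 5 higher (RPL39 and RPS19 among them) and 5 lower (RPL26L1 and RPL36A among them), a smaller share than the 3980 of 13729 genes called in that fit. Without high-dose replicate 1, 4 members were called.

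None of the 3 lowered paralogs was called in the combination: RPL7L1 measured 0.00 ± 0.09, RPL39L 0.16 ± 0.15 and RPL26L1 0.04 ± 0.13 on the log2 scale against DMSO (adjusted p = 0.993, 0.604 and 0.893, edgeR). The combination and the high dose were not compared directly. The core partners RPL39 and RPL26 measured 0.21 and 0.17 with the high dose and RPL7 0.05, and none was called.

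RPL22L1 is the paralog of RPL22, whose protein is known to repress it. It measured 284, 397, 369 and 441 CPM in the combination, 365, 416, 414 and 423 CPM with the high dose, and 413, 450.3, 435 and 571 CPM in DMSO. The combination overlapped DMSO by 1 library, and the log2 fold change was -0.33 ± 0.11 in the combination and -0.21 ± 0.11 with the high dose (adjusted p = 0.0692 and 0.168, edgeR). Against prexasertib the combination measured -0.33 ± 0.11 (adjusted p = 0.0843), and with the replicate block that goes with this comparison RPL22L1 was called lower (adjusted p = 0.000131).

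That block called 13 members in the combination against prexasertib, 12 higher and 1 lower, where the fit without it called 1. Among the 12 were RPS27 (0.30 ± 0.08), RPS19 (0.30 ± 0.06), RPL11 (0.20 ± 0.07) and RPLP2 (0.20 ± 0.06), with 10.0% of all genes called. Without combination replicate 4, 2 members were called. Against the low dose the block called 6 members, 5 higher and 1 lower (RPL22L1), with 8.37% of all genes called.

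In the combination against DMSO the count of called members was 2 without DMSO replicate 1, combination replicate 1 or combination replicate 4, and 6 without DMSO replicate 4. With no library left out, 6.3% of all genes were called.

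**Figure D3:**
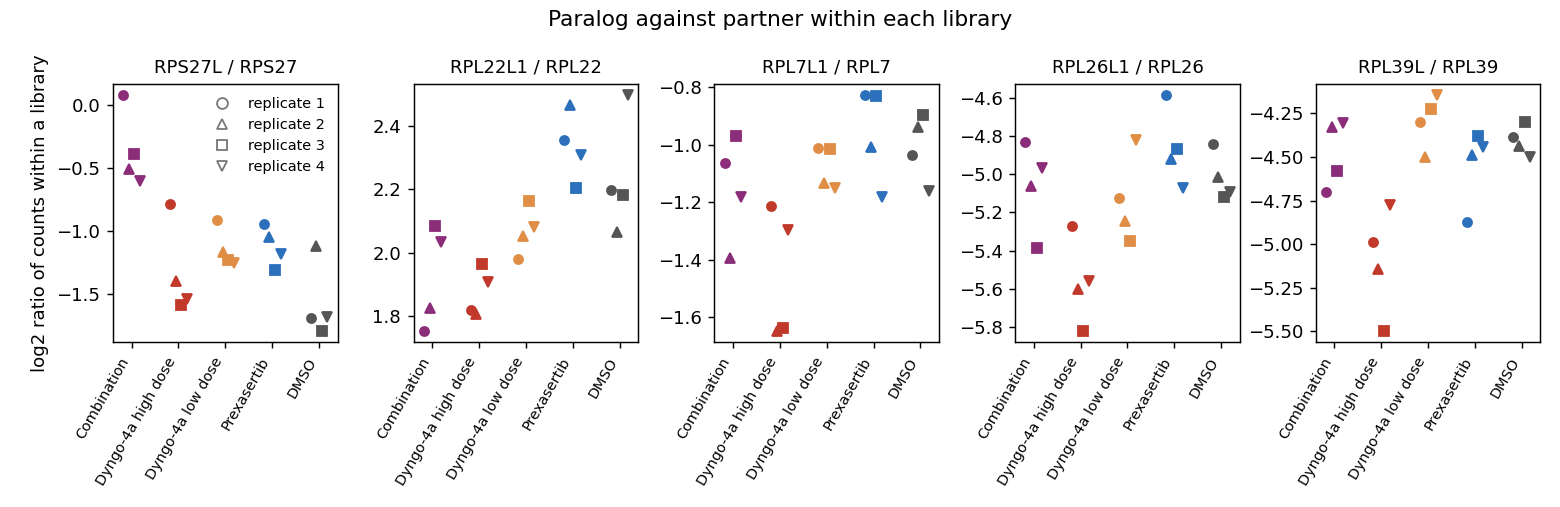
Log2 ratio of each L-type paralog's counts to those of its core partner within a library (y axis, scaled separately for each pair), by group (x axis). Points are libraries shaped by replicate number; the RPS27L ratio is highest in the combination (-0.60 to 0.08), and the RPL39L and RPL26L1 ratios average lowest with the high dose (-5.10 and -5.56).

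The mean log2 ratio of RPL39L to RPL39 was -5.10 ± 0.31 with the high dose and -4.40 ± 0.09 in DMSO, and that of RPL26L1 to RPL26 was -5.56 ± 0.22 and -5.02 ± 0.12 (SD, n = 4 each). That of RPL7L1 to RPL7 was -1.45 ± 0.23 and -1.01 ± 0.12. In each of these 3 pairs the high-dose libraries lay below all DMSO libraries. For RPL22L1 to RPL22 the ratio was 1.92 ± 0.16 in the combination, 1.87 ± 0.07 with the high dose and 2.23 ± 0.18 in DMSO.

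Reads of ribosomal protein mRNAs can be placed on the many processed pseudogenes of these genes. The table held 1600 ribosomal protein pseudogenes, of which 175 were tested. Their counts were, at the median, 4.87% of the summed counts of a gene and its pseudogenes, under 5% for 42 of the 84 genes and over 50% for 4. RPL17 (99.5%) and RPL36A (96.4%) had nearly all of that sum in pseudogene rows, so their values are uncertain. RPS27L, RPL22L1, RPL39L and RPL26L1 had no pseudogene counts and RPL7L1 had 0.122%. Their core partners had 35.6% (RPS27), 5.97% (RPL22), 0.393% (RPL39), 15.5% (RPL26) and 36.4% (RPL7). Those pseudogene counts are not in the ratios of paralog to partner, and their effect on the ratios was not tested. The pseudogenes themselves had a median log2 fold change of 0.32 in the combination, 0.26 with the high dose, 0.16 with the low dose and 0.15 with prexasertib, each higher than the core genes' median.

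Other ribosome components lie outside the symbol pattern. FAU encodes a ribosomal protein fused to a ubiquitin-like protein, RPL36AL is a copy of RPL36A, and RACK1 binds the small subunit. None of these 3 was called by edgeR, DESeq2 or limma-voom in any comparison. At an unadjusted p under 0.05 edgeR passed RACK1 in the combination and with the high dose against DMSO, and none of the 3 elsewhere. The log2 fold change of RACK1 was 0.24 ± 0.10 in the combination and 0.23 ± 0.10 with the high dose (adjusted p = 0.149 and 0.0804, edgeR). FAU measured -0.05 and -0.17, and RPL36AL 0.06 and -0.16, in the same comparisons.

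Of 24 other genes known for TOP mRNAs, 22 were tested and EEF1G and EIF3L were not. With the high dose 6 of the 22 were called higher and 0 lower, where 12.5% of all genes were called higher and 12.7% lower, and the median log2 fold change was 0.18. EIF4A2, an RNA helicase of translation initiation, measured 339, 478, 432 and 493 CPM with the high dose, and 236, 239, 232 and 277 CPM in DMSO. The groups did not overlap, and EIF4A2 rose by 0.82 ± 0.11 (adjusted p = 2.42e-07, edgeR). VIM (vimentin), EIF4B (a cofactor of that helicase) and GAS5 (a host of small nucleolar RNAs) rose by 0.52, 0.41 and 0.66 (adjusted p = 7.07e-05, 0.00141 and 0.00159, edgeR). In the combination 2 of the 22 were called, beside 6.3% of all genes, both higher: EIF4A2 by 0.46 ± 0.11 and SNHG5, another snoRNA host, by 0.84 ± 0.22 (adjusted p = 0.00424 and 0.03). The SNHG5 call was lost without any 1 of DMSO replicates 1 to 4 or combination replicates 1, 3 and 4, and with limma-voom. Against the low dose, the high dose raised 4 of the 22 (EIF4A2, VIM, GAS5 and EIF4B), with a median of 0.09 over the 22, beside 20.2% of all genes called. The replicate block called 7, beside 3980 of all 13729 genes.

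Among 14 genes that control TOP mRNAs and ribosome number, the high dose called 4, 3 lower and 1 higher, a share near the 25.2% of all genes called. The combination called 0 by edgeR, beside 6.3% of all genes. At an unadjusted p under 0.05 edgeR passed 4, beside 19.5% of all genes. DESeq2 called 1 lower, beside 482 of all genes called lower, and limma-voom called 0. Without DMSO replicate 3 the combination called 1, and without DMSO replicate 4 the high dose called 2. EIF4EBP2, a repressor of cap-dependent initiation under mTORC1, measured 66.5, 80.3, 73.5 and 80.8 CPM with the high dose, and 105, 118, 98.5 and 118 CPM in DMSO. It fell by 0.55 ± 0.10 (adjusted p = 4.69e-05, edgeR). LARP4, an mRNA-stabilising protein, fell by 0.55 and the S6 kinase gene RPS6KB2 by 0.48 (adjusted p = 1.28e-05 and 0.00668). TSC1, which restrains mTORC1, measured 0.40 higher (adjusted p = 0.0354), a call lost without DMSO replicate 2 or 4 or high-dose replicate 1, 2 or 3. LARP1 and MTOR were not called. Against the low dose EIF4EBP2, LARP4 and RPS6KB2 were again lower, with log2 fold changes of -0.66, -0.44 and -0.57, beside 20.2% of all genes called, and the block added 2 genes called higher, beside 3980 genes called in all.

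The last group holds 20 assembly partners: chaperones and carriers of ribosomal proteins, import receptors, and factors of subunit assembly. Of these the high dose lowered 7 and raised 2, where 12.7% of all genes were called lower and 12.5% higher, with a median log2 fold change of -0.15. HEATR3, the carrier of RPL5, measured 19.9, 21.1, 18.0 and 24.9 CPM with the high dose, and 27.2, 44.9, 37.9 and 43.1 CPM in DMSO, without overlap. It fell by 0.86 ± 0.15 (adjusted p = 4.75e-05, edgeR). GRWD1, a chaperone of RPL3, measured 28.4, 31.5, 26.1 and 24.9 CPM with the high dose, and 45.9, 47.4, 50.2 and 44.8 CPM in DMSO, and fell by 0.76 ± 0.11 (adjusted p = 1.76e-06). BCCIP, which escorts RPL23, fell by 0.60 and BYSL, a factor of small-subunit assembly, by 0.64 (adjusted p = 7.57e-06 and 0.000295).

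In the combination 3 of the 20 were called, all lower, where 6.3% of all genes were called, with a median of -0.21. BYSL measured 30.2, 30.5, 30.2 and 28.6 CPM in the combination, and 42.4, 48.6, 36.5 and 43.7 CPM in DMSO, without overlap, and fell by 0.52 ± 0.13 (adjusted p = 0.00949, edgeR). The import receptor gene IPO7 fell by 0.33 and MDN1, a remodelling ATPase of the large subunit, by 0.43 (adjusted p = 0.00804 and 0.0118). The count was 6 without combination replicate 4, and the MDN1 call was lost without DMSO replicate 1 or 3 or combination replicate 4. Against prexasertib 3 were lower, beside 3.44% of all genes called: LTV1, RPF2 and BYSL, with log2 fold changes of -0.45, -0.42 and -0.48. DESeq2 called 5 lower against DMSO, beside 482 of all genes called lower, and 7 against prexasertib, beside 277. The replicate block called 9 against prexasertib, beside 10.0% of all genes. By edgeR without the block, the count against prexasertib was 1 without combination replicate 3 and 5 without combination replicate 4, and the BYSL call was lost without any 1 of the combination libraries or prexasertib replicate 2 or 4. With the low dose and with prexasertib edgeR, DESeq2 and limma-voom called 0 of the 20 against DMSO. At an unadjusted p under 0.05 edgeR passed 4 and 0 of them, beside 7.57% and 3.77% of all genes.

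**Figure D4:**
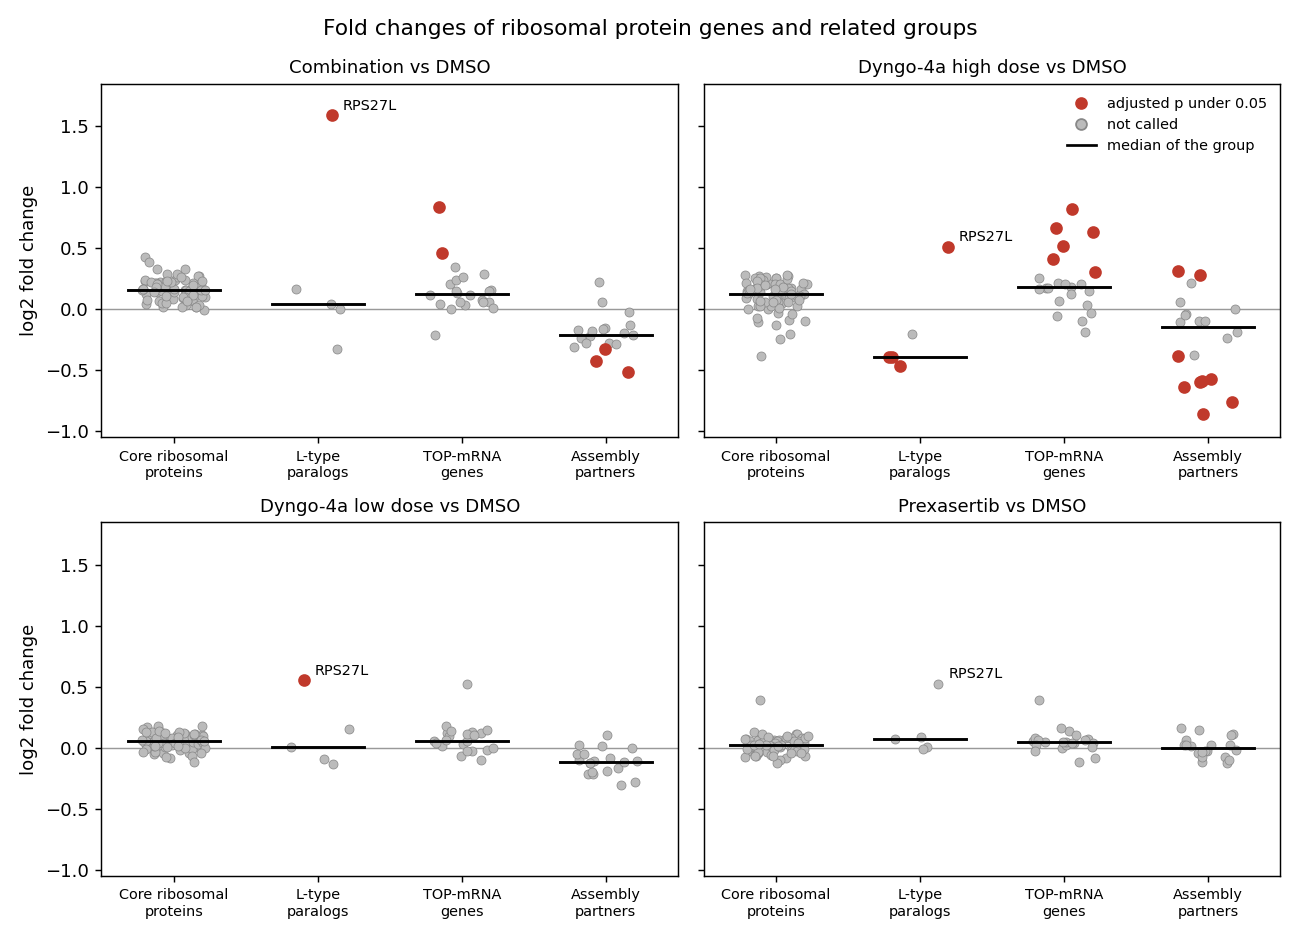
Log2 fold change against DMSO (y axis) of the core ribosomal protein genes, the L-type paralogs, the other TOP-mRNA genes and the assembly partners (x axis) in each drug group, 1 panel per group. Points are genes, red where edgeR's adjusted p is under 0.05, and black lines are medians; no core gene is called, while RPS27L reaches 1.59 in the combination.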

How the data were processed

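RNA of IMR-32 cells was made into 20 QuantSeq 3′ mRNA libraries with molecular barcodes, per the labels' protocols. The authors deposited raw counts per Ensembl gene, not normalised. The submitters' processing notes name FastQC 0.11.7, STAR 2.7.2b, edgeR 3.36.0, limma 3.50.3 and the build GRCh38. For the annotation release, the counter, its strand setting and any collapse of barcodes, the sources say nothing. Each of the 20 columns entered the fit. Gene positions came from GENCODE 29, and start windows from RefSeq (GRCh38.p14). Members, paralog pairs and the 4 related gene lists were chosen with earlier results of these data known, and nothing here is independent support for those results.

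Genes were filtered with filterByExpr (minimum count 10, minimum total 15), scaled by TMM (factors 0.968 to 1.03) and fitted in 1 model of 20 libraries with edgeR 4.0.16 in R 4.3.3 (robust quasi-likelihood, common biological coefficient of variation 12.5%). Two-sided p-values received Benjamini-Hochberg adjustment over 13729 genes in each of 8 comparisons, with a threshold of 0.05. Intervals (95%) used the standard error and 15 degrees of freedom. A count of 0 allows 3 counts, 0.757 CPM in the smallest and 0.459 CPM in the largest library, and covers counting error only. Libraries of a group differed beyond counting noise (chi-square per degree of freedom 3.05 to 8.76), so none was a copy. The fit was tested on simulated data with known changes.

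Named members were the called ones with the smallest adjusted p, up to 6 each way, plus the paralog pairs, the stalk genes, RPSA, RPL5, RPL11, RPS6, RPS19 and RPS26, and of each list up to 4 called genes. Genes named only as examples of range or pseudogene share were picked with their values known. A few genes of the lists and of the members are not reported here.

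The alternatives tried were library sizes alone, relative log size factors, TMM without the members, 2 other filters, DESeq2 1.42.0, limma-voom (limma 3.58.1), a fit of only the groups compared, a block for replicate number, a term for replicates 1 and 3, each replicate subset alone, and leaving out each library. Replicate numbers were taken to pair libraries where deviations of same-numbered libraries correlated above 0.1 in all 4 pairs. That held for the low dose against DMSO (0.144 to 0.237), prexasertib against DMSO (0.157 to 0.213), the high against the low dose (0.11 to 0.298), and the combination against prexasertib (0.115 to 0.23) and against the low dose (0.144 to 0.294).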

Additional observations from a re-analysis of the deposited data

Results flagged for a closer look

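In groups of 4 libraries, a value was flagged when its gap to the nearest library exceeded Dixon's 95% critical value relative to the group's range. Of 105 groups tested over 20 named members and the members' share, 3 were flagged (2.86%), where chance flags about 1 in 20.

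RPL22L1 measured 365.0 CPM in high-dose replicate 1, below the other 3 high-dose libraries (414 to 423 CPM). RPL39 measured 596 CPM in combination replicate 1, below the other 3 combination libraries (690.0 to 706 CPM). RPL39L measured 21.3 CPM in prexasertib replicate 1, below the other 3 prexasertib libraries (28.3 to 29.5 CPM). All 3 were the lowest value of their group and came from libraries numbered 1. No explanation was tested.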

How the results depend on the processing

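Counts of called members depended on how the replicate pattern was treated. No called gene changed sign. The members' median log2 fold change moved by less than the spread between replicates in 168 of 168 settings, but that spread is wide against the medians: without each library the prexasertib median ran from -0.01 to 0.10 and that of the interaction from -0.005 to 0.14. Of the values of the 20 named members, 3216 stayed the same, 54 moved, 76 became called and 14 lost the call. The other members were not tallied singly. Of single list genes' values 751 kept the call and 89 lost it.

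For the high dose against DMSO (4 members called), the count was 7 with library sizes alone, 11 without the filter, 27 with the replicate block (34.4% of all genes), 23 with the term for replicates 1 and 3, 9 within replicates 1 and 3, and 2 to 16 without each library. For the combination against DMSO (1 called), the count was 4 with library sizes alone, 5 without the filter, 3 with DESeq2, 2 with limma-voom, 29 with the block (14.4% of all genes), 9 with the term, 4 within replicates 1 and 3, 2 within replicates 2 and 4, and 1 to 6 without each library. The replicate numbers did not pair these groups by the rule used (lowest correlation 0.0271 and 0.0274). In both, 3 of 4 libraries correlated best with their own number. The same groups were paired in other comparisons, so the rule does not settle whether they share blocks. These blocked counts are thus a hint from the data and not from the design. The edgeR fit used throughout called 25.2% of all genes with the high dose and 6.3% in the combination. Shares of all genes in the other unblocked edgeR fits are not given here.

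For the low dose the count was 0 within replicates 2 and 4, and 1 without each library. For prexasertib it was 1 (RPS27L) without the filter, with DESeq2, with the compared groups alone, with the block, with the term and within replicates 1 and 3, and 0 to 1 without each library. For the high against the low dose (2 called) it was 10 with the block, 4 with the term, 1 within replicates 2 and 4, and 2 to 4 without each library. For the combination against prexasertib (1 called) it was 3 with library sizes alone, 2 without the filter, 3 with DESeq2, 13 with the block, 5 with the term, 2 within replicates 1 and 3, and 1 to 2 without each library. For the combination against the low dose it was 6 with the block, 2 with the term and 1 without each library. For the interaction it was 1 (RPS27L) with the block (adjusted p = 0.000186) and with the term (adjusted p = 0.01), and 0 without each library.

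Counting pseudogenes raised the members' share to 13.6% in the combination, 13.5% with the high dose, 12.9% with the low dose, 12.5% with prexasertib and 12.1% in DMSO. The cause of these differences was not tested, apart from the pseudogene counts added. Leaving MALAT1 out of the total moved each group's share by less than 1 SD. Depth limits RPL17 and RPS10, with few counts, more than most members.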
